A study of Mus musculus with 1753 samples.

Results

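A set of 10 genes of small-molecule metabolism was followed across the fibroblasts and mural cells of mouse skeletal muscle: Hsd11b1, Aldh1a1, Aldh1a2, Aldh1a3, Cyp1b1, Cyp2f2, Fmo2, Ces1d, Ces2g and Dpep1. They are 10 of the 46517 genes in the table, and each symbol was found once. The genes were chosen by their measured levels, as enzymes that differ among the cell clusters of these data, so their levels by cluster are given as a description, with no test. The comparison of soleus with gastrocnemius, which that choice did not use, was tested.

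The series holds 1753 single cells in 10 clusters, made with Smart-seq2, a plate method that reads full-length cDNA and carries no molecular identifiers. Cells were sorted from hindlimb muscle of male mice of 10 to 20 weeks as positive for PDGFRα, PDGFRβ or a reporter and negative for the endothelial protein CD31. Every cell carries 1 of 5 strain labels, which serve as replicates. C57BL6 is an inbred strain without a reporter, and the other mice were backcrossed to it. PdgfrbGFP, Acta2GFP and Cspg4dsRED carry a fluorescent protein under the control of the named gene, and the PdgfraGFP - PdgfrbGFP pool, called the pool from here on, holds cells of both reporter lines. A reporter marks the cells that use its promoter, so each label samples its own range of cells. Elastase was added to the dissociation of Acta2GFP muscle. The extraction text in the labels names heart, while the tissue label of every cell names skeletal muscle. The labels name no animal, so the spread between strain labels may hold technical differences. All Acta2GFP cells lay on 1 plate, as did all Cspg4dsRED cells, and 366 of the 373 C57BL6 cells lay on 1 plate. For these labels, strain, sorting, dissociation and plate cannot be told apart.

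The study names clusters 1, 3, 5, 6 and 8 endomysial, after the thin connective tissue around single muscle fibres. It anticipates that they also hold fibroadipogenic progenitors and perivascular fibroblasts, and leaves this to further analysis. Below, endomysium stands for these clusters, not for a measured location. Clusters 2 and 9 are assigned to the perimysium around fibre bundles, and cluster 4 lies between these layers as paramysial cells. Cluster 10 has no class name, is marked by Ngfr and was located by the study at the margin of nerve fibres. Cluster 7 holds mural cells. The markers set mural cells apart from fibroblasts. The summed level of 5 fibroblast markers was 438 scaled counts in cluster 7 and between 6140 and 12093 in the other clusters. That of 4 mural markers was 4075 in cluster 7 and at most 43.5 elsewhere. The fibroblast classes were less separate. Perimysial markers summed to 6890 in cluster 2 and 4877 in cluster 9, but also to 3289 in cluster 4. Paramysial markers summed to 2510 in cluster 4, 1292 in cluster 9 and 409 in cluster 5. The fibroblast marker Pdgfra was low in clusters 2 and 9, at 14.9 and 9.93. Endothelial, immune, adipocyte, Schwann and mesothelial markers summed to at most 53.5 in any cluster. The myofibre markers Acta1 and Ckm summed to at most 97.4, in cluster 6, and their part in the results was not tested. A cell held between 46097 and 1055869 counts, and the median of a strain label lay between 121646 in Cspg4dsRED and 367563 in the pool.

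Retinoic acid is made from vitamin A in successive steps: alcohol dehydrogenases and retinol dehydrogenases oxidise retinol to retinaldehyde, and the ALDH1A enzymes oxidise retinaldehyde to retinoic acid, which acts through nuclear receptors. 11β-hydroxysteroid dehydrogenase 1, encoded by Hsd11b1, works mainly as a reductase that regenerates active glucocorticoid from its inert keto form inside the cell. Cytochromes P450 and flavin-containing monooxygenases add oxygen to drugs, toxins and endogenous lipids, and carboxylesterases cleave ester bonds. Cells with such enzymes can set the local supply of hormones and signalling lipids as well as the fate of foreign compounds.

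A level here is the mean over cells of counts scaled to 500000 per cell, spike-ins left out, first within each strain label that had at least 3 cells of the cluster and then over labels, with the SD over labels. A gene was called detected in a cell at 100 or more scaled counts, after a limit of 100 counts that the study set in its test between groups of cells. For a share of 0, the limit given is 3 cells of the total. A difference in level can come from more positive cells or from more RNA in each, so the share of cells detected is given beside it with its exact 95% binomial interval, which covers counting error only. Read counts without molecular identifiers are not independent molecules.

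The 250 bases before the RefSeq start were available for 8 of the 10 genes, in build GRCm38.p6. A set of 4 is shown, whose windows hold no annotated exon and whose genes stand for the retinoid, P450, monooxygenase and dipeptidase members. Capitals mark matches on either strand to GCGTG, the core bound by the aryl hydrocarbon receptor, TATAAA, the TATA box, CCAAT, the CCAAT box, AGAACA, a core of glucocorticoid receptor elements, and AGGTCA, a core of retinoic acid receptor elements.
Aldh1a2, chr9:71215539-71215788, plus strand: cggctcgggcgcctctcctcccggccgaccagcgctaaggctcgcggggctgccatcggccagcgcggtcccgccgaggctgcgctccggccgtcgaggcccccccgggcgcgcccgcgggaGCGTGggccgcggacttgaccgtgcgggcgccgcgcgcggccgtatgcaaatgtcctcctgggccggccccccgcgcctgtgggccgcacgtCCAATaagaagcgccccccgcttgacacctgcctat
Cyp1b1, chr17:79715062-79715311, minus strand: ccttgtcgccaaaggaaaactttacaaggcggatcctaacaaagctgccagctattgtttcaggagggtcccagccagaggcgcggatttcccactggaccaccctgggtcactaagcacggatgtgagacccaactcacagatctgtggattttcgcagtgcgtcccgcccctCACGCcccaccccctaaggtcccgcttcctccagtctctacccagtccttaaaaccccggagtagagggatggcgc
Fmo2, chr1:162898759-162899008, minus strand: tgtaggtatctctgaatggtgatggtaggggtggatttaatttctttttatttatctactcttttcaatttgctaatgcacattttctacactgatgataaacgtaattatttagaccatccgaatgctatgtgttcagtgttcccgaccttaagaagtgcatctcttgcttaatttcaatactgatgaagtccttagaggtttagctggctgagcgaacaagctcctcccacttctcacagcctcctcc
Dpep1, chr8:123185985-123186234, plus strand: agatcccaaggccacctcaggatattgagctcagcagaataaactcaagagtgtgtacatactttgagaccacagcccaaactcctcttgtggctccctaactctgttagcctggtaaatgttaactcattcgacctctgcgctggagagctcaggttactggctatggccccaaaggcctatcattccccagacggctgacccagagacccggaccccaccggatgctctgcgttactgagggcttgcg

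The windows differ in composition. The Aldh1a2 window is 77.6% G and C with 40 CpG dinucleotides, against a median of 52.4% and 6 CpG over the 32851 promoters of the same length. Fmo2 stands at the other end, with 39.6% G and C and 4 CpG, and Cyp1b1 and Dpep1 lie near the median at 58.0% and 53.6%. GCGTG or its reverse complement was found in the windows of Aldh1a2, Cyp1b1 and Hsd11b1, the last of which is annotated as exon, and 28.2% of all promoters hold it. CCAAT, held by 33.8% of promoters, was found before Aldh1a2, Hsd11b1, Ces2g and the inner start of Aldh1a1. AGAACA was found before Ces2g and the inner start of Fmo2 and AGGTCA before Cyp2f2 and the inner start of Fmo2, against 16.1% and 14.0% of all promoters, while TATAAA, in 12.4% of promoters, was in none of the windows. No matches overlapped, and a match of a few letters is a description of the sequence only.

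The endomysial clusters divided the enzymes among them. Cluster 3 led for 3 genes, Hsd11b1, Aldh1a2 and Ces1d, cluster 8 for Fmo2, Cyp1b1 and Dpep1, cluster 1 for Aldh1a3 and cluster 6 for Cyp2f2. Aldh1a1 and Ces2g stood highest in cluster 5 by a margin within the spread of the labels. The leading cluster was the same in every strain label that could be compared for 7 of the 10 genes, all but Aldh1a1, Ces2g and Dpep1. This count was 5 with each plate and muscle taken as the unit, where Aldh1a2 led in 6 of 7 units and Cyp2f2 in 5 of 6. It was 6 among cells with 100000 or more counts, where Aldh1a3 led in 3 of 4 labels. With counts summed before scaling it stayed 7, but Cyp1b1 led in 3 of 4 labels and Ces2g in 3 of 3. For 5 of the 7 genes first counted, the lowest label of the leading cluster lay above the highest of the next one. These were Hsd11b1, Aldh1a3, Ces1d, Fmo2 and Cyp1b1. The members were chosen as genes that differ among these clusters, and no matching share over all genes was computed. The counts therefore describe the chosen genes only.

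**Figure D1:**
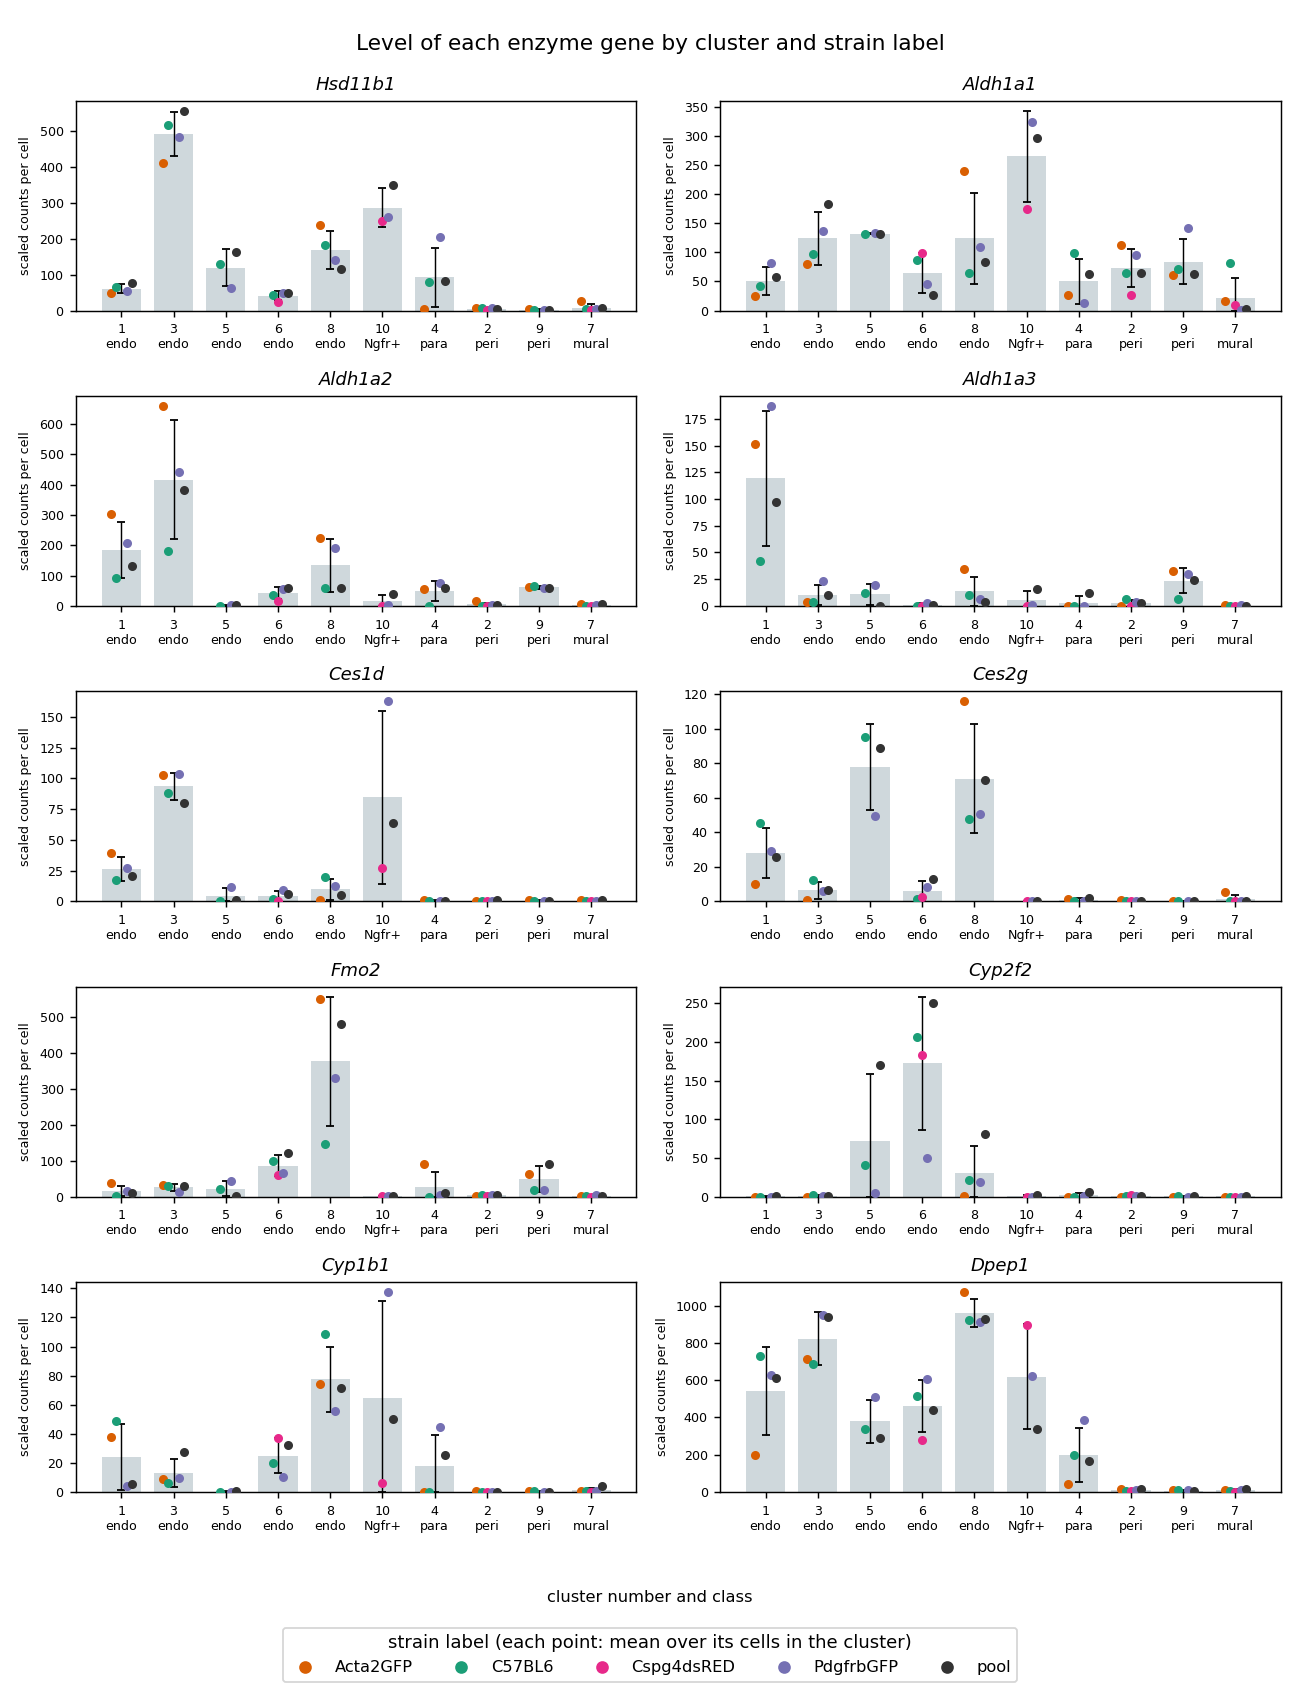
Level of each gene in scaled counts per cell (y axis, linear, a scale of its own in each panel) by cluster (x axis; endo, endomysial; para, paramysial; peri, perimysial). Points are strain labels, bars their mean and whiskers the SD cut at 0; Hsd11b1 in cluster 3 lies between 411 and 557 in all 4 labels, and Cyp2f2 is close to 0 outside clusters 5, 6 and 8.

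In mural cells these enzymes were rarely detected. Of 187 mural cells, 95.7% had none of the 10 genes detected, and no gene exceeded a level of 22.4 there. Of the perimysial cells, 69.9% of the 269 of cluster 2 and 45.8% of the 59 of cluster 9 had none, and Aldh1a1 was the gene most often detected in both. In the endomysium the same share was 1.19% in cluster 8, 2.05% in cluster 3, 4.35% in cluster 1, 15.2% in cluster 6 and 16.1% in cluster 5. A cell of cluster 3 had a mean of 3.37 of the 10 genes detected, one of cluster 8 had 3.23, one of cluster 1 had 2.29, one of cluster 5 had 2.16 and one of cluster 6 had 1.64. Cluster 6 is also where Cspg4dsRED, the shallowest label, contributes most of its endomysial cells, and 33.3% of the 51 endomysial cells of that label had none detected, against 2.98% to 8.33% in the other labels.

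Hsd11b1 (ENSMUSG00000016194, chr1:193221634-193264075, minus strand) was the clearest marker of cluster 3. Its level there was 557 in the pool, 516 in C57BL6, 484 in PdgfrbGFP and 411 in Acta2GFP, a mean of 492 ± 61.6 (SD, n = 4). All of these lie above every label of the other endomysial clusters, of which cluster 8 came next with 116 to 238 and a mean of 169 ± 53.2. Cluster 5 followed at 119 ± 51.5 (n = 3), cluster 1 at 61.3 ± 12.4 and cluster 6 at 41.6 ± 12.2. Cluster 3 thus held 55.7% of the summed endomysial cluster means. Detection was 85.5% of the 440 cells of cluster 3 (interval 81.8 to 88.6%), 41.9% in cluster 5, 41.1% in cluster 8, 23.6% in cluster 1 and 12.6% in cluster 6. Beyond the endomysium, cluster 10 held 286 ± 54.7 (n = 3), the paramysial cluster 4 ranged from 5.23 to 204 between labels, and both perimysial clusters stayed below 5.

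The genes around Hsd11b1 were measured too. H6pd supplies the reduced cofactor that 11β-HSD1 needs in the endoplasmic reticulum. Its level was also highest in cluster 3 among endomysial clusters, at 127 ± 51.5 (n = 4). It stood at 77.5 in cluster 8, 70.8 in cluster 5, 42.7 in cluster 1 and 40.5 in cluster 6, and at 119 in cluster 10. Hsd11b2, which encodes the enzyme that inactivates glucocorticoid, did not exceed 3.47 in any endomysial cluster. Nr3c1, the glucocorticoid receptor, lay between 93.7 and 148 in all 5. These genes were picked out after their values were seen. The most abundant genes of the fixed glucocorticoid list were Dusp1, a phosphatase gene induced by glucocorticoid and by stress, Tsc22d3, which encodes the glucocorticoid-induced leucine zipper protein, and Cebpd, a transcription factor gene. Dusp1 was level across the endomysium at 592 to 710, Tsc22d3 was highest in cluster 6 at 443 ± 104 and lowest in cluster 1 at 167, and Cebpd ranged from 194 in cluster 6 to 368 in cluster 5. Dusp1, like Hsd11b1, was highest in cluster 3, at 710 ± 120 (n = 4), with cluster 5 at 706. A link of these 3 genes to Hsd11b1 was not tested.

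Of the retinaldehyde dehydrogenases, Aldh1a2 (ENSMUSG00000013584, chr9:71215789-71296243, plus strand) was the most abundant in clusters 1 and 3. In cluster 8 its mean was 133 and that of Aldh1a1 124. There Aldh1a1 was the higher in every label but PdgfrbGFP, and was detected in 37.2% of cells. For Aldh1a2, cluster 3 held 181 in C57BL6, 381 in the pool, 442 in PdgfrbGFP and 660 in Acta2GFP, a mean of 416 ± 197 (n = 4). Cluster 1 held 93.4, 133, 207 and 303 in the same order of labels, and cluster 8 held 58.1, 59.8, 192 and 224. C57BL6 was the lowest and Acta2GFP the highest in all of these clusters, so the spread between labels was shared by the clusters, and cluster 3 led within every label although the ranges overlap. Detection was 63.9% in cluster 3 (interval 59.2 to 68.4%), 28.6% in cluster 1, 26.1% in cluster 8 and 13.9% in cluster 6. Cluster 5 stood apart from the rest of the endomysium, with a level of 1.16 ± 0.69 (n = 3) and detection in 0 of 31 cells, a count that allows up to 9.68%. The perimysial cluster 9 held 60.8 ± 3.62 (n = 4), from 57.5 to 65.9, whereas the perimysial cluster 2 held 4.63.

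Aldh1a3 (ENSMUSG00000015134, chr7:66390890-66427517, minus strand) was a gene of cluster 1. The level was 42.0 in C57BL6, 97.1 in the pool, 151 in Acta2GFP and 187 in PdgfrbGFP, a mean of 119 ± 63.5 (n = 4), and 34.8% of the 161 cells were detected (interval 27.5 to 42.7%). No label of another endomysial cluster exceeded 34.1, so cluster 1 held 77.0% of the summed endomysial means, the highest such share among the 10 genes. The Acta2GFP value rests on 6 cells, of which 1 was detected, and the same holds for Aldh1a2 in this cluster and label. Where Aldh1a3 was detected in cluster 1, the median cell held 238 scaled counts. Clusters 3, 5 and 8 stood between 10.3 and 13.5, cluster 6 at 1.10 and the perimysial cluster 9 at 23.4 ± 11.7.

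Aldh1a1 (ENSMUSG00000053279, chr19:20492715-20643465, plus strand) had no such home. Endomysial means were 133 in cluster 5, 124 in clusters 3 and 8, 64.7 in cluster 6 and 51.4 in cluster 1, and the ranges over labels of clusters 3, 6 and 8 overlap. The 3 labels of cluster 5 gave nearly the same value, which rests on 12, 3 and 16 cells, and the plates of PdgfrbGFP lay apart at 75.5 (9 cells) and 206 (7 cells). Here the leader changed to cluster 3 or 8 when Acta2GFP, C57BL6 or the pool was left out. Aldh1a1 was highest of all in cluster 10, at 175 in Cspg4dsRED, 296 in the pool and 324 in PdgfrbGFP, a mean of 265 ± 79.0. It was also detected in the perimysium, in 26.8% of cluster 2 and 27.1% of cluster 9 cells. Aldh1a7, a close relative picked after its values were seen, had a level of at most 0.077 in any endomysial cluster.

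Taken per kilobase of exon, Aldh1a2 stood at 184 scaled counts per kb in cluster 3, against 25.2 for Aldh1a1 and 2.23 for Aldh1a3. The length is that of all annotated exons of a gene merged, which can exceed the transcript in use. Values of different genes therefore compare only roughly. In cluster 1 the order was Aldh1a2 at 81.4, Aldh1a3 at 25.8 and Aldh1a1 at 10.4. In cluster 5 Aldh1a1 was at 26.8 and Aldh1a2 at 0.51. At least 1 of these 3 genes was detected in 76.6% of cluster 3 cells (interval 72.3 to 80.5%), 61.3% of cluster 5, 60.9% of cluster 1, 56.5% of cluster 8 and 30.3% of cluster 6. Cells with more than 1 of them made up 35.2% of cluster 3 and 21.7% of cluster 1, and no more than 9.88% of any other endomysial cluster.

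The other genes of the retinoid pathway had varied leading clusters. Adh1, an alcohol dehydrogenase that oxidises retinol, was the most abundant of the list in cluster 3, at 441 ± 113 (n = 4), and stood at 330 in cluster 6, 319 in cluster 8, 128 in cluster 1 and 31.4 in cluster 5. Rarres2, which encodes the chemoattractant chemerin, ranged from 149 in cluster 6 to 475 in cluster 5, and Tgm2, a transglutaminase gene induced by retinoic acid in many cells, from 43.0 in cluster 1 to 134 in cluster 8, with 758 in mural cells. Of the 29 genes of the list, 10 had a mean of 20 or more over the endomysial clusters, and of these cluster 8 led for 5, cluster 5 for 3 and clusters 3 and 6 for 1 each. Among genes picked after their values were seen, Dhrs3, which encodes a retinaldehyde reductase that works against the ALDH1A enzymes, was highest in cluster 6 at 138 ± 69.5 and lowest in cluster 1 at 13.1 and cluster 3 at 35.7. The receptor genes Rara and Rarg were present in all 5 clusters, at 11.4 to 41.9 and 36.9 to 64.4, and Rarb did not exceed 4.94.

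**Figure D2:**
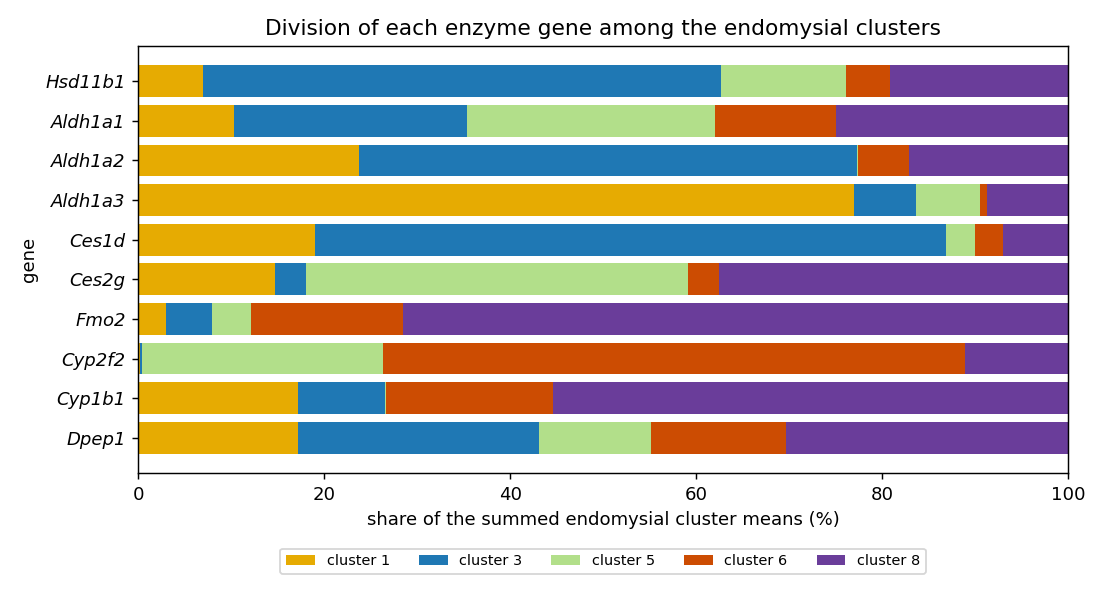
Share of each gene's summed endomysial cluster means (x axis, percent) held by clusters 1, 3, 5, 6 and 8 (colours), each cluster mean being taken over strain labels. Aldh1a3 lies mostly in cluster 1, Fmo2 mostly in cluster 8, and Dpep1 and Aldh1a1 are spread over all 5.

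Fmo2 (ENSMUSG00000040170, chr1:162874317-162898726, minus strand), a flavin-containing monooxygenase gene known for its expression in lung, was the monooxygenase of cluster 8. Levels there were 146 in C57BL6, 331 in PdgfrbGFP, 482 in the pool and 551 in Acta2GFP, a mean of 377 ± 180 (n = 4), with 60.5% of 253 cells detected (interval 54.2 to 66.5%). C57BL6 was low by its share of cells as well, with 28.3% detected against 66.2 to 92.3% in the other labels. Cluster 6 came next at 86.6 ± 29.0, and its highest label, 121, lay below the lowest of cluster 8. In cluster 8 cells with Fmo2, Aldh1a1 was detected in 48.4% (interval 40.2 to 56.6%), against 20.0% (12.7 to 29.2%) of those without it. The direction was the same in the 3 labels compared. Shares were 64.7 against 11.6% in C57BL6, 48.0 against 26.0% in PdgfrbGFP and 29.2 against 16.7% in the pool. The pool had 30 cells in this cluster, so its shares rest on few cells. Cells with and without Fmo2 had medians of 268657 and 294083 counts. Fmo1, a relative picked out after its values were seen, was instead highest in cluster 6, at 228 ± 64.2.

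Cyp1b1 (ENSMUSG00000024087, chr17:79701537-79715061, minus strand) encodes a P450 that hydroxylates estrogens and polycyclic hydrocarbons and that the aryl hydrocarbon receptor induces. It too was highest in cluster 8, at 55.9 in PdgfrbGFP, 71.2 in the pool, 74.2 in Acta2GFP and 109 in C57BL6, a mean of 77.5 ± 22.3 (n = 4), with 24.9% of cells detected. C57BL6, the lowest label for Fmo2 in this cluster, was the highest for Cyp1b1. Cluster 6 followed at 25.0 ± 12.1 and cluster 1 at 24.0 ± 22.9, and cluster 5 held 0.20 with 0 of 31 cells detected, again a count that allows up to 9.68%. Cluster 10 ranged widely, from 6.46 in Cspg4dsRED to 137 in PdgfrbGFP. Of the aryl hydrocarbon receptor list, Arnt, the DNA-binding partner of the receptor, stood at 9.70 to 39.6 in the endomysial clusters, and Tiparp, a target of the receptor, at 29.6 to 47.1. Ahr itself, picked after its value was seen, was detected in 0.448% of endomysial cells and did not exceed a level of 3.10.

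Cyp2f2 (ENSMUSG00000052974, chr7:27119909-27133660, plus strand), a P450 gene best known from club cells of the airway, was present in a minority of cluster 6. Levels were 50.1 in PdgfrbGFP, 183 in Cspg4dsRED, 207 in C57BL6 and 250 in the pool, a mean of 173 ± 86.3 (n = 4), although no more than 19.9% of the 231 cells were detected (interval 15.0 to 25.7%). The median detected cell held 760 scaled counts, more than that of any other member but Dpep1 in its leading cluster. Shares by label were 8.64% in PdgfrbGFP, 17.4% in Cspg4dsRED, 28.6% in C57BL6 and 30.2% in the pool. Cluster 5 gave 71.7 ± 87.0 (n = 3), a mean carried by the pool, where 1 of 3 cells was detected, and cluster 8 gave 30.8 ± 34.5. Clusters 1 and 3 had 0 detected cells of 161 and of 440, counts that allow up to 1.86% and 0.682%. Of the 46 cluster 6 cells with Cyp2f2, 15.2% also had Fmo2 detected (interval 6.3 to 28.9%), against 24.9% (18.8 to 31.7%) of those without it, intervals that overlap. The gene shares 274 of its 2025 exonic bases with the antisense gene Gm15883, and the use of strand in counting was not stated, so reads in that stretch cannot be assigned to either gene with certainty.

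Ces1d (ENSMUSG00000056973, chr8:93166068-93197838, minus strand), a carboxylesterase gene whose product also hydrolyses triglyceride in adipose tissue, followed Hsd11b1 into cluster 3. It stood at 80.4 in the pool, 87.8 in C57BL6, 102 in Acta2GFP and 103 in PdgfrbGFP, a mean of 93.5 ± 11.3 (n = 4), so the labels lay close together. Detection reached 30.0% of cluster 3 (interval 25.8 to 34.5%), and the next endomysial cluster, cluster 1, held 26.1 ± 9.55. Cluster 10 was close to cluster 3 in its mean, 84.5, but ranged from 27.1 to 163. Adipocyte markers were at or near 0 in all clusters, with a summed level of at most 0.375.

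Ces2g (ENSMUSG00000031877, chr8:104961718-104969537, plus strand), of the other main carboxylesterase family, was shared by clusters 5 and 8. Cluster 5 held 49.2 in PdgfrbGFP, 88.8 in the pool and 95.2 in C57BL6, and cluster 8 held 47.6 in C57BL6, 50.4 in PdgfrbGFP, 70.3 in the pool and 116 in Acta2GFP. The ranges overlap, and the means of 77.7 ± 24.9 (n = 3) and 71.1 ± 31.6 (n = 4) were not apart. Cluster 1 followed at 27.7 ± 14.5, and clusters 3 and 6 held 6.26 and 6.21. The esterases were thus detected in largely different clusters, with 30.0% of cluster 3 cells for Ces1d and 2.95% for Ces2g, and 4.35% of cluster 8 cells for Ces1d and 24.9% for Ces2g. None of the 17 other carboxylesterase genes of the fixed list reached a mean of 20 over the endomysial clusters, and 14 were detected in no cell of the series. Ces2b, the most abundant of them, stood at 3.27 in cluster 8. Close copies in these families could share reads, and how the counting treated such reads was not stated.

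Dpep1 (ENSMUSG00000019278, chr8:123186242-123201812, plus strand) encodes a membrane dipeptidase that cleaves leukotriene D4 and cysteinyl dipeptides. It was the most abundant member per kilobase in every endomysial cluster, from 153 scaled counts per kb in cluster 5 to 386 in cluster 8, but marked none of them. Cluster 8 held 914 in PdgfrbGFP, 924 in C57BL6, 928 in the pool and 1073 in Acta2GFP, a mean of 960 ± 75.6 (n = 4). Cluster 3 followed at 822 ± 142, cluster 1 at 542 ± 234, cluster 6 at 460 ± 139 and cluster 5 at 380 ± 116 (n = 3), and detection ran from 64.1% in cluster 6 to 94.1% in cluster 8. In PdgfrbGFP and the pool cluster 3 stood above cluster 8, at 949 and 940. Cluster 10 held 619 ± 280 and the paramysial cluster 198 ± 143. The perimysial clusters stood at 10.5 and 7.88 and the mural cluster at 9.17, with 1 detected cell in cluster 2 and none in clusters 7 and 9, counts of 0 that allow up to 1.60% and 5.08%. A count of 1 or more was nonetheless found in 93.3% of cluster 2 cells, which shows how far a share of cells with any count departs from the level.

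The genes that act beside Dpep1 on leukotrienes were mostly low. Ggt5, a gamma-glutamyl transferase gene whose product turns leukotriene C4 into the substrate of the dipeptidase, was highest in cluster 3 at 88.2 ± 43.0 and reached 72.5 in mural cells. Lta4h, the leukotriene A4 hydrolase gene, lay between 40.5 and 61.3 in the endomysial clusters, and Alox5ap, the activating protein of 5-lipoxygenase, did not exceed 5.26. Ltc4s, the leukotriene C4 synthase gene, chosen after its values were seen, had a level of at most 0.059 in the endomysial clusters. Of the 10 genes on the list, 2 reached a mean of 20.

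**Figure D3:**
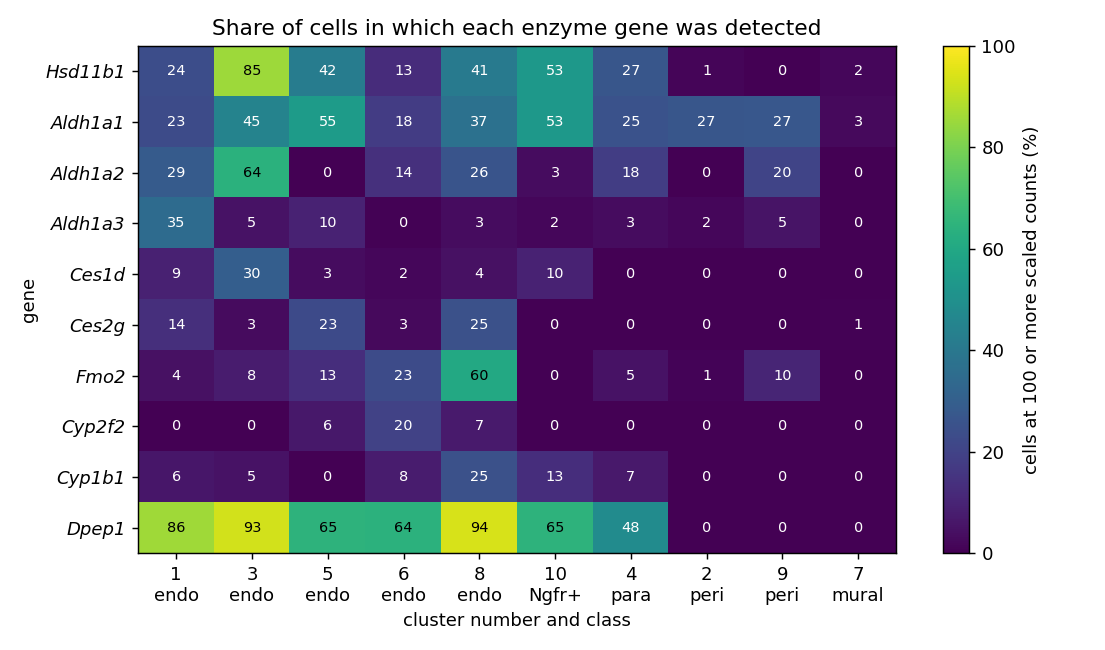
Percent of cells of each cluster (x axis) with 100 or more scaled counts of each gene (y axis), over all strain labels. The Dpep1 row runs from 64.1 to 94.1% in the endomysial clusters, while Cyp2f2 does not exceed 19.9%.

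Broader detoxification genes were measured as well. Gstm1, a glutathione transferase gene, was detected in 97.7% of endomysial cells, at 451 in cluster 6 to 769 in cluster 1. Cyb5r3 and Cyb5a, which encode the cytochrome b5 reductase and cytochrome b5 that pass electrons to P450 enzymes, lay between 155 and 415 and between 163 and 307. Of the 30 phase I and phase II genes, 19 had a mean of 20 or more in the endomysium. Their leading clusters were spread: cluster 5 led for 6, cluster 6 for 4, and clusters 1, 3 and 8 for 3 each. Among other aldehyde dehydrogenases, the mitochondrial Aldh2 was broad at 215 to 303, with 360 in mural cells, and Aldh3a2 and Aldh7a1 stood at 43.4 to 83.6 and 30.1 to 60.5. Hsd3b7, a gene of bile acid synthesis, led the list of other steroid genes and was highest in cluster 1, at 240 ± 80.8, against 94.8 to 136 in the rest of the endomysium. Hsd17b4, of peroxisomal oxidation, lay between 30.2 and 75.7 in the endomysium.

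**Figure D4:**
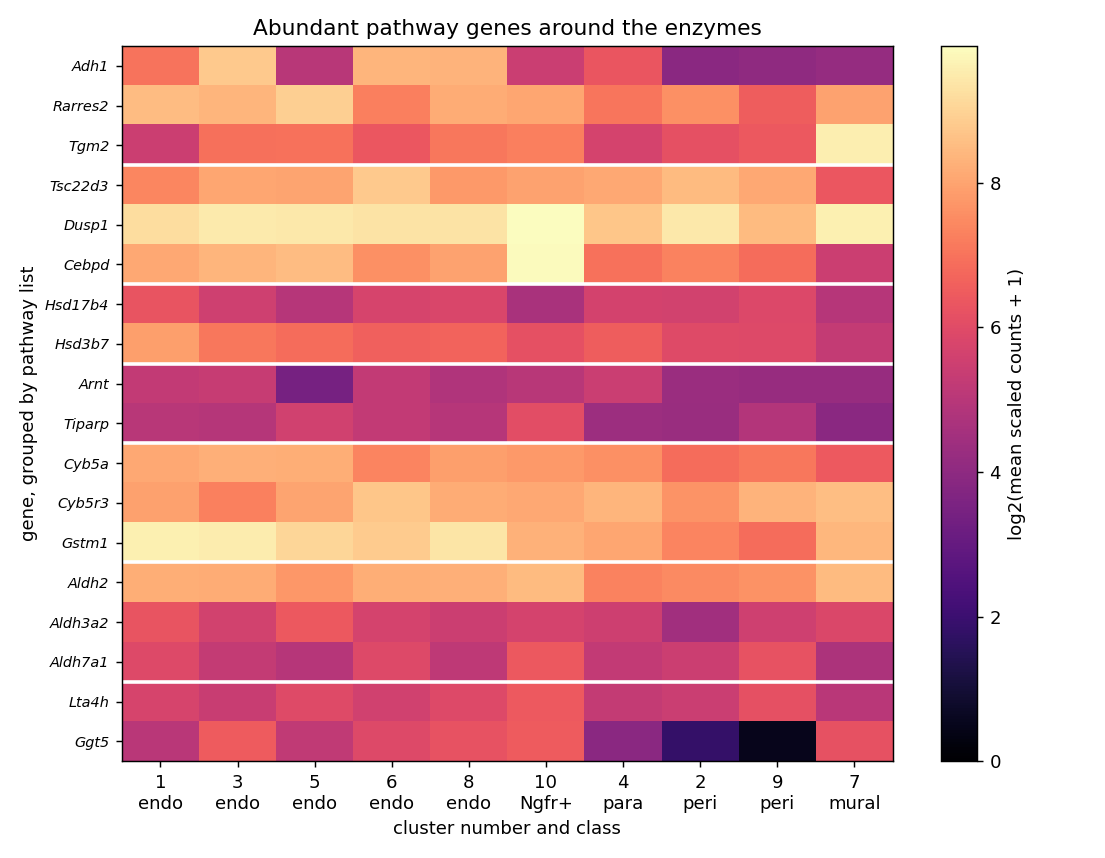
Mean level over strain labels, as log2(scaled counts + 1), of abundant genes of the fixed pathway lists (rows, white lines between lists) in each cluster (columns). Genes with an endomysial mean under 20 are left out; most rows are even across the endomysium, with Adh1 low in cluster 5.

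Detection of members in the same cells was compared within clusters. For 324 ordered pairs of members in endomysial clusters, the share of cells with the second gene was computed in cells with and without the first, and the intervals were apart in 14, in each of which the second gene was more frequent in cells with the first. Most of these lay in cluster 3, and most involved Hsd11b1. As the pairs are ordered, the same genes can count in both orders. The intervals treat cells as independent and are no test. They are wide where a group of cells is small, so intervals that overlap do not show that detection was unrelated. No matching share over other pairs of genes was computed. Aldh1a1 was detected in 48.9% of the 376 cells with Hsd11b1 and in 18.8% of the 64 without it, and the direction held in all 4 labels: 24.1 against 20.0% in Acta2GFP, 42.6 against 0% (0 of 10 cells, which allows up to 30.0%) in C57BL6, 47.3 against 20.7% in PdgfrbGFP and 58.1 against 26.7% in the pool. The Acta2GFP shares rest on 39 cells in all, and lay close together. In PdgfrbGFP both genes also differed between the plates of cluster 3, Hsd11b1 at 556 and 372 and Aldh1a1 at 176 and 75.9. Cells with Hsd11b1 were deeper, with a median of 291187 against 230886 counts. The parts of depth and plate in the difference were not tested. Aldh1a2 was detected in 66.5% and 48.4% of the same cells, but C57BL6 went the other way, at 34.0 against 40.0%. In cluster 1, Aldh1a2 was found in 57.9% of the 38 cells with Hsd11b1 and 19.5% of the 123 without it.

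The genes most like each member in pattern were found by Pearson's r of log2(mean scaled counts + 1) over 37 groups of cluster and strain label, among 8504 genes. These groups share animals, plates and depth, so r is a description. Scara5, Sult5a1 and Pdgfra were the closest to both Dpep1, with r of 0.96, 0.96 and 0.95, and Hsd11b1, with r of 0.89, 0.89 and 0.87. Serpina3c, a serpin gene highest in cluster 5, matched Ces2g at 0.94, followed by Ildr2 at 0.87 and Ifi205 at 0.85. The antisense Gm15883 matched Cyp2f2 at 0.98, and the genes share exonic bases as given above, while Klf5, a transcription factor gene, stood at 0.83 and P2ry6 at 0.77. Axl, Pi16 and Optn were closest to Aldh1a3, at 0.81, 0.74 and 0.73, and Efemp1, Abca6 and Ccl11 to Ces1d, at 0.85, 0.83 and 0.82. For Fmo2 these were Cygb, Prcd and Tspan18 at 0.78, 0.77 and 0.74, and for Cyp1b1 AW112010, Scara5 and Dact1 at 0.81, 0.81 and 0.79. Aldh1a1 was matched by Rab34, Nfic and Srpx at 0.80, 0.79 and 0.78, and Aldh1a2 by Irak1, Antxr2 and Enox1 at 0.78, 0.78 and 0.75. Between members, r was highest for Hsd11b1 with Dpep1, at 0.92, and lowest for Aldh1a3 with Cyp2f2, at -0.19.

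Soleus, a slow postural muscle, and gastrocnemius, a mixed muscle, were compared in the endomysial cells of the labels that hold both. The pool gave 108 soleus and 194 gastrocnemius cells and PdgfrbGFP 90 and 112. In the pool each muscle had its own plate, so muscle and plate cannot be told apart there, while in PdgfrbGFP both lay on the same plate. Counts were summed per label and muscle, and the 4 sums were tested with the label as a block. The edgeR quasi-likelihood test called 0 of 16337 genes (0%) after Benjamini-Hochberg adjustment at a threshold of 0.05, and 778 had an unadjusted p under 0.05. DESeq2 called 132 genes, 0.827% of those it tested. None of the 10 members was called by either tool.

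Dpep1 had the lowest unadjusted p of the members in the edgeR fit, and Ces2g the lowest adjusted p in any alternative, 0.159 by DESeq2. The level of Dpep1 over endomysial cells was 1011 in gastrocnemius and 784 in soleus in PdgfrbGFP, and 913 and 561 in the pool. It was lower in soleus in both labels, with a fitted log2 fold change of -0.69 ± 0.17 (SE, 2 sums a muscle) and an edgeR adjusted p of 0.97, and adjusted p ran from 0.28 to 1.00 over the alternatives. Ces2g had the largest fitted change, -1.44 ± 0.55 with an edgeR adjusted p of 0.97, with levels of 40.4 in gastrocnemius and 8.26 in soleus in PdgfrbGFP and 19.3 and 15.9 in the pool. Within cluster 8 its level was 64.1 and 28.0 in PdgfrbGFP and 76.3 and 62.3 in the pool, and in cluster 3 alone, where it was low, the fitted log2 change was -6.03 ± 1.39. Clusters 5 and 1 were unequal between the muscles, and their part in the change was not tested: no cluster 5 cell and no cluster 1 cell of PdgfrbGFP came from soleus, against 7 and 16 from gastrocnemius.

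The other members moved less or went opposite ways. Aldh1a1, Aldh1a3 and Cyp1b1 were below gastrocnemius in the summed counts of both labels, with fitted log2 changes of -0.55 ± 0.32, -0.44 ± 0.35 and -0.47 ± 0.26. Aldh1a1 in PdgfrbGFP differed by -0.016 only. By mean level, Aldh1a3 in the pool stood at 22.8 in gastrocnemius and 24.0 in soleus, and Cyp1b1 in PdgfrbGFP at 33.1 and 33.2. Hsd11b1, Aldh1a2, Ces1d, Fmo2 and Cyp2f2 had opposite signs in PdgfrbGFP and the pool. Hsd11b1 stood at 123 in gastrocnemius and 254 in soleus in PdgfrbGFP and at 378 and 260 in the pool, and the share of its leading cluster 3 among endomysial cells ran the same way, from 17.0 to 56.7% in PdgfrbGFP and from 59.8 to 43.5% in the pool. Within cluster 3 alone its level was 326 and 389 in PdgfrbGFP and 563 and 544 in the pool, and the fitted log2 change was -0.18 ± 0.20. Over the 10 members the median log2 change was -0.51, against -0.02 over all genes tested. The summed level of the perimysial markers was also unequal, at 259 in gastrocnemius and 959 in soleus in PdgfrbGFP and 48.5 and 232 in the pool. Paramysial markers stood at 67.5 and 105 in PdgfrbGFP and 34.5 and 138 in the pool, and fibroblast markers at 12378 and 9590 and at 7544 and 6396. The part of these markers in the values was not tested. Of the genes around the members, edgeR called 0 of 23 in the retinoid list, 0 of 15 in the glucocorticoid list, 0 of 14 in the steroid list, 0 of 5 in the aryl hydrocarbon receptor list and 0 of 27 in the phase I and phase II list, in either direction.

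**Figure D5:**
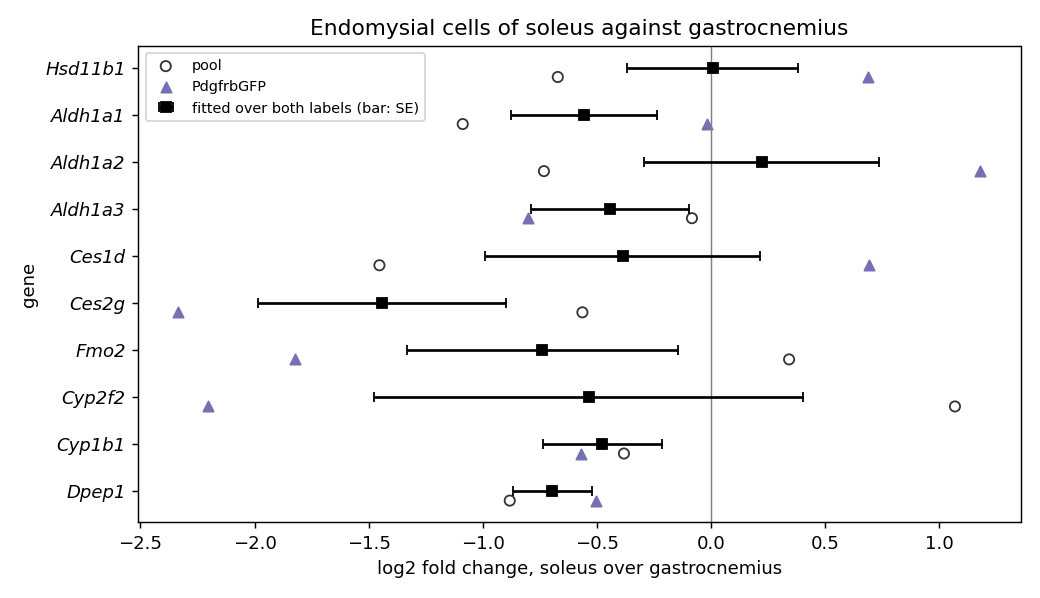
Log2 fold change of soleus over gastrocnemius in endomysial cells (x axis) for each gene (y axis). Squares are the edgeR fit over both strain labels with its SE, circles the pool alone and triangles PdgfrbGFP alone; the labels fall on opposite sides of 0 for 5 of the 10 genes.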

How the data were processed

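The authors deposited raw read counts per gene and cell. Per the methods and labels, Smart-seq2 reads were demultiplexed with bcl2fastq, trimmed, mapped to GRCm38 with TopHat2 and counted with featureCounts, and cells were filtered and clustered with pagoda2. The strand setting and annotation release were not given in the sources used here. Of 1754 columns, 1753 matched a labelled cell and 1 was not used here. Spike-ins, 1.31% of counts, were left out. Identifiers were matched to GENCODE M21 (GRCm38), and promoter windows were taken from RefSeq. The lowest depth was 46097 counts per cell.

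Clusters and strain labels came from GEO's labels, and the n of each value is a number of strain labels with at least 3 cells. The genes, the pathway lists and the tests were chosen with earlier results of these data known, and clusters were made from the same counts, so levels by cluster carry no test. All members are named, with the 3 most abundant genes of each list, of which some are not reported here, and the 3 closest in pattern (groups of 5 or more cells, genes at 20 or more scaled counts in a cluster). The muscle comparison used the quasi-likelihood test of edgeR 4.0.16 (R 4.3.3) with TMM factors, filterByExpr and the strain label as a block. Alternatives were DESeq2 1.42.0, other size factors, no filter, no block, cluster 3 alone, clusters kept apart and equal cell numbers, and for levels the leaving out of each label, thinning and other limits. The script was tested on simulated data. The block is the strain label that both muscles share. Same-label deviations from the muscle means correlated at 0.14, with 2 labels.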

Additional observations from a re-analysis of the deposited data

Results flagged for a closer look

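Of 40 sets of 4 strain labels, a gene in a cluster each, 3 held a label far from the other 3, and chance alone flags about 1 in 20. Dpep1 in cluster 8 was 1073 scaled counts in Acta2GFP, against 914 to 928 in the other labels. Cyp1b1 in cluster 3 was 27.3 in the pool, against 6.17 to 9.65. Cyp2f2 in cluster 1 was 1.32 in the pool, against 0 to 0.129, all far below the detection limit.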

How the results depend on the processing

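The leading cluster changed in 6 of 100 pairs of a member and an alternative, 4 for Aldh1a1 and 2 for Ces2g. Thinning every cell to 45000 counts gave detection of 84.5% for Hsd11b1 in cluster 3, 60.1% for Fmo2 in cluster 8 and 20.3% for Cyp2f2 in cluster 6. Between muscles, the fit with no replicate block called 0 genes, as did each other edgeR alternative, while DESeq2 with the strain block called 132. The cause was not tested. Some log2 changes of members turned sign, none of them called. Without the block these were Hsd11b1 at -0.085 and Cyp2f2 at 0.29. In cluster 3 alone they were Hsd11b1 at -0.18, Aldh1a3 at 2.22, Fmo2 at 0.045 and Cyp1b1 at 0.32. With clusters 3, 6 and 8 kept apart they were Hsd11b1 at -0.69, Aldh1a2 at -0.48, Aldh1a3 at 0.062 and Ces1d at 0.77, and with equal numbers of cells Hsd11b1 at -0.22 and Aldh1a3 at 2.18. Within single labels, Hsd11b1 ran from -0.67 to 0.69, Aldh1a2 from -0.73 to 1.18, Ces1d from -1.45 to 0.69, Fmo2 from -1.82 to 0.34 and Cyp2f2 from -2.21 to 1.07.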
